A study of Arabidopsis thaliana with 16 samples.

Results

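EXPA16 (AT3G55500), EXPA7 (AT1G12560), EXPA18 (AT1G62980) and EXPA4 (AT2G39700) are 4 genes for alpha-expansins of Arabidopsis, taken here by their symbols with no filter on expression. Each had 1 probe set annotated to it alone, so they are 4 of 13287 genes, and 4 of 18 expansin and expansin-like genes, with a probe set of their own among the 22746 on the array. Whole seedlings of wild-type Col were grown for 12 days in liquid medium, kept dark for 1 h, given hydrogen peroxide (H2O2) for 30 min and then 1 µM epi-brassinolide (BL) or its ethanol solvent for 1 h, still in the dark and with the H2O2 left in. The doses were 0, 1, 5, 25, 50 and 100 mM. The 16 arrays comprised a BL array and a solvent array at each of the 5 doses above 0 mM, and 3 of each kind without H2O2. The labels number the replicates at 0 mM but do not say whether they were separate cultures. The spread among them may thus be technical, and it enters every p-value except in fits of the H2O2 arrays alone.

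Expansins are secreted proteins that loosen plant cell walls at acid pH without cutting their polymers, and so let turgor stretch the wall. EXPA7 and EXPA18 are transcribed in root hair cells and are used as markers of them, and the outgrowth of a hair depends on wall loosening on the outer face of the epidermal cell. Brassinosteroids are steroid hormones of cell expansion, and genes for expansins are among those they are known to raise, while H2O2 can both stiffen walls through peroxidases and act as a signal.

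One control array stood apart from the rest. Solvent control 3 correlated with the other arrays at 0 mM at only 0.816 to 0.907 over the 13140 probe sets kept, whereas those others correlated with each other at 0.958 to 0.990. Its correlation with the H2O2 arrays was 0.857 to 0.890, against 0.890 to 0.935 for the other 0 mM arrays. Results that rest on it are given with and without it. The 3 Arabidopsis control transcripts, a check of RNA integrity, differed on that array by 2.74 log2 units between their 3′ and 5′ probe sets, against a mean of 2.73 ± 0.05 over all arrays at 0 mM (SD, n = 6).

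EXPA16 was lower on every H2O2 array than on any array without H2O2. All levels are log2 signals, so 1 unit is a doubling. At 1 mM it read 6.69 with BL and 6.65 with solvent. The readings were 5.99 with BL and 5.80 with solvent at 5 mM, and 5.75 with BL and 5.39 with solvent at 25 mM. At 50 mM EXPA16 read 4.42 with BL and 4.35 with solvent, and at 100 mM 4.19 with BL and 4.68 with solvent. The arrays without H2O2 read 8.45, 8.17 and 8.58 with BL and 8.15, 8.46 and 6.75 with solvent. All 10 H2O2 arrays lay below all 6 arrays at 0 mM, though the highest H2O2 array missed the lowest control, solvent control 3, only narrowly. Of the 13140 probe sets, 5.32% had every H2O2 array below every 0 mM array. The gene lay at the 42nd to 59th percentile of its array under H2O2, against the 60th to 79th at 0 mM.

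**Figure D1:**
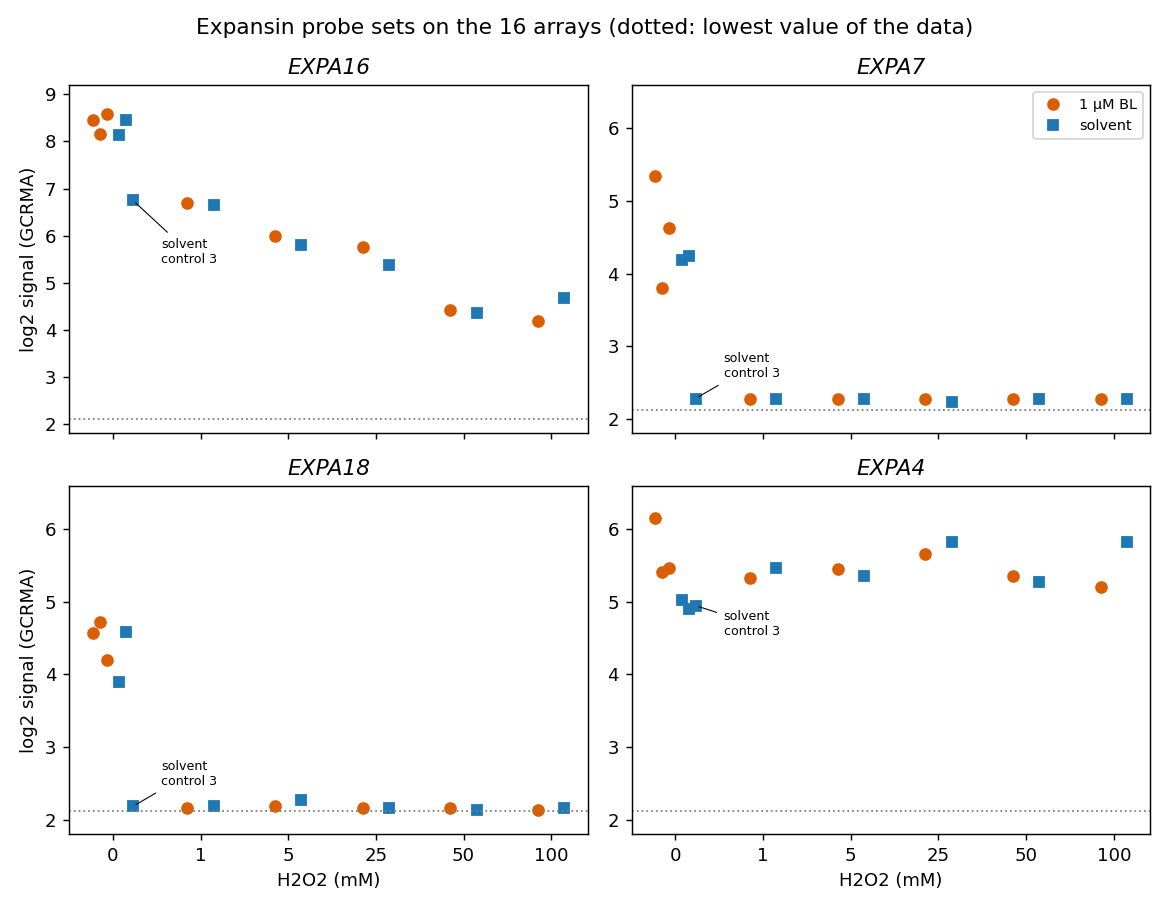
Log2 signal of the 4 expansins (vertical axes) at each H2O2 dose in mM (horizontal axes), with 1 point per array, BL as orange circles left of solvent as blue squares. EXPA16 steps down over the doses to 4.19 and 4.68 at 100 mM, EXPA7 and EXPA18 lie near the dotted lowest value of the data on every H2O2 array and on solvent control 3, and EXPA4 lies between 4.90 and 6.16 throughout.

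EXPA16 fell at all 5 doses against 0 mM. The log2 difference was -1.42 at 1 mM (SE 0.38, limma adjusted p = 0.0229), which is 2.68-fold lower. It was -2.20 at 5 mM (adjusted p = 0.0022) and -2.53 at 25 mM (adjusted p = 0.0015). At 50 and 100 mM the differences were -3.71 and -3.66, each with an adjusted p of 0.0002, and the level at 100 mM was 12.6-fold lower than at 0 mM. The background was wide: limma called 10.5%, 13.5%, 7.66%, 7.08% and 7.26% of the 13140 probe sets lower at 1, 5, 25, 50 and 100 mM. A call means that the p-value, adjusted by Benjamini and Hochberg's method over every probe set tested, was under 0.05. The call at 1 mM was lost when either array of that dose was left out (adjusted p = 0.203 for the BL array and 0.136 for the solvent array) and when all 22746 probe sets were tested (0.0527). Without solvent control 3 the differences ran from -1.69 at 1 mM to -3.97 at 50 mM, and all 5 calls were made (adjusted p at most 1.96e-05).

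Within the arrays of one hormone state, where each dose has 1 array against 3, EXPA16 differed in the same direction at every dose. The spread used to test these differences came from the 0 mM arrays of both states, solvent control 3 included. With BL the differences from 0 mM were -1.71, -2.41, -2.65, -3.98 and -4.21 from 1 to 100 mM, and with solvent they were -1.14, -1.99, -2.40, -3.43 and -3.10. None of these 10 was called (limma adjusted p = 0.0911 to 0.549).

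Once H2O2 was present, the level of EXPA16 still fell with dose. Over the 10 arrays from 1 to 100 mM the fitted line dropped by 2.30 log2 units (SE 0.26, limma adjusted p = 0.0001), with no 0 mM array in the fit. Of the 13140 probe sets, 16.2% were called lower along that line and 22.2% higher. None of the steps between neighbouring doses was called, at -0.78 (5 against 1 mM), -0.33 (25 against 5 mM), -1.18 (50 against 25 mM, adjusted p = 1.00) and 0.05 (100 against 50 mM). Those 4 steps had 0.304%, 0.114%, 0.00% and 0.00% of probe sets called, with 55 and 234 probe sets at an unadjusted p under 0.05 in the 2 steps with none called. By dose the mean levels were 6.67, 5.89, 5.57, 4.39 and 4.44 at 1, 5, 25, 50 and 100 mM, with the 50 and 100 mM arrays overlapping.

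A measure of RNA ends moved with dose as well. The mean 3′ minus 5′ difference of the control transcripts was 2.66 at 1 mM, 2.73 at 5 mM, 2.98 at 25 mM, 2.93 at 50 mM and 3.24 at 100 mM (n = 2 each), against 2.73 ± 0.05 at 0 mM (SD, n = 6). Its part in the expansin results was not tested. In whole seedlings, fewer cells of a type and less RNA per cell cannot be told apart.

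EXPA7 was near the bottom of the scale on every array with H2O2. The 10 H2O2 arrays read 2.23 to 2.28, and the lowest value of the whole data is 2.12. Without H2O2 the gene read 5.34, 3.80 and 4.63 with BL and 4.19, 4.24 and 2.28 with solvent. The 5 arrays other than solvent control 3 were thus all clearly above the H2O2 arrays, and solvent control 3 read the same as the H2O2 arrays. The values under H2O2 give no order of doses, since they lie at the floor of the method.

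EXPA18, the other root hair marker, had the same pattern. It read 2.13 to 2.27 on the 10 arrays with H2O2. At 0 mM it read 4.57, 4.72 and 4.20 with BL and 3.89, 4.58 and 2.18 with solvent. Again 5 of 6 arrays without H2O2 stood well above all H2O2 arrays, and solvent control 3 lay among them. EXPA7 and EXPA18 correlated at r = 0.95 over the 16 arrays, which share the split between floor and 0 mM levels, and at 0.15 within the 10 H2O2 arrays.

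Neither marker passed the test with all 16 arrays. EXPA7 reached 5 on 1 array and EXPA18 on none, so both failed the filter (at least 5 on at least 2 arrays) and were tested in the fit of all 22746 probe sets. With the H2O2 arrays at the floor, the change may be understated. The fitted differences over the doses were -1.80 to -1.83 for EXPA7 (SE 0.57, limma adjusted p = 0.0756 to 0.102). For EXPA18 they were -1.80 to -1.88 (SE 0.54, limma adjusted p = 0.0578 to 0.0687). At 1 mM the 95% intervals were wide, at -3.09 to -0.52 for EXPA7 and -3.05 to -0.65 for EXPA18. In that fit 5.57%, 6.85%, 3.94%, 3.74% and 3.64% of probe sets were called lower at 1, 5, 25, 50 and 100 mM.

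The call turned on solvent control 3. Without it the fitted differences were -2.15 to -2.17 for EXPA7 (limma adjusted p = 0.0019 to 0.0027). For EXPA18 they were -2.16 to -2.24 (limma adjusted p = 0.00012 to 0.00016), and both genes were called at all 5 doses. The background rose too, to 14.2%, 14.5%, 10.5%, 9.85% and 10.9% of probe sets called lower at those doses. For both genes every H2O2 array lay below the 5 other 0 mM arrays, as did 8.37% of the 22746 probe sets. Among the BL arrays, which do not include that control, all 5 with H2O2 lay below all 3 without it for EXPA7 and for EXPA18, and so they did for 16.9% of probe sets. With each array centred on its median, EXPA18 was called at all 5 doses and EXPA7 at 5, 25 and 100 mM. Among the kept probe sets, that centring also moved the balance of calls towards lower ones at 25 and 100 mM. Neither gene was called at any dose with quantile normalization, with limma-trend or within the arrays of one hormone state. The tests within one state took their spread from both groups at 0 mM. Those of the BL arrays thus also carried the spread of solvent control 3.

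EXPA4 did not follow the other 3 genes. Under H2O2 it read 5.33, 5.45, 5.65, 5.36 and 5.21 with BL and 5.46, 5.35, 5.82, 5.27 and 5.83 with solvent, from 1 to 100 mM. Without H2O2 it read 6.16, 5.42 and 5.47 with BL and 5.02, 4.90 and 4.95 with solvent. With both states pooled, the H2O2 arrays lay within the range of the 0 mM arrays, but the hormone states differed. All 5 H2O2 arrays with solvent lay above all 3 solvent controls, as they did for 9.38% of the 13140 probe sets, while the H2O2 arrays with BL overlapped the BL arrays at 0 mM. Within BL arrays the differences from 0 mM were -0.35, -0.23, -0.027, -0.32 and -0.47 from 1 to 100 mM, and within solvent arrays they were 0.51, 0.40, 0.87, 0.31 and 0.87, none called (limma adjusted p = 0.388 to 0.985). In the fit of all 16 arrays the differences were 0.08, 0.08, 0.42, -0.0047 and 0.20 from 1 to 100 mM, none called (limma adjusted p = 0.350 to 0.995), with 95% intervals between -0.62 and 1.04. The line from 1 to 100 mM had a change of 0.10 (SE 0.18, adjusted p = 0.696), and its sign turned with median centring (-0.0014).

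**Figure D2:**
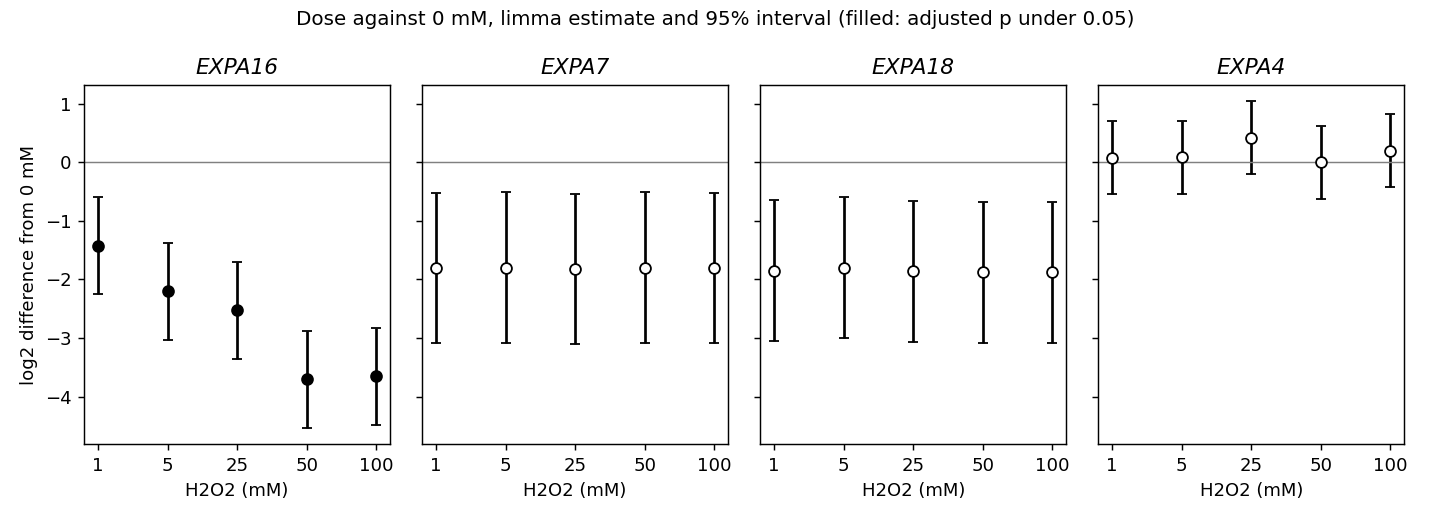
Log2 difference of each H2O2 dose from 0 mM (vertical axes) by dose in mM (horizontal axes), as the limma estimate over all 16 arrays with its 95% interval, filled where the adjusted p was under 0.05. EXPA16 lies at -1.42 at 1 mM and -3.66 at 100 mM, EXPA7 and EXPA18 lie near -1.8 with open points, set by the floor of the signal, and the intervals of EXPA4 all hold 0.

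Among the 4 genes, the response to BL was strongest in EXPA4 relative to its spread. At 0 mM the 3 BL arrays averaged 5.68 ± 0.41 and the 3 solvent arrays 4.96 ± 0.06 (SD, n = 3 each), and the groups did not overlap. The same non-overlap, all BL arrays above all solvent arrays, was found in 14.4% of the 13140 probe sets. The difference of 0.73 (SE 0.23, 95% interval 0.15 to 1.3) had an unadjusted p of 0.0208 and a limma adjusted p of 0.502, and was not called. Leaving out 1 of the 6 arrays put the difference between 0.49 and 0.86. BL at 0 mM gave few calls anywhere, 0.0228% of the kept probe sets and 0.00879% of all 22746. An unadjusted p under 0.05 by limma was common, though, in 1213 of the 13140 kept probe sets.

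Under H2O2 the BL and solvent arrays of EXPA4 overlapped. The BL minus solvent differences at 1, 5, 25, 50 and 100 mM were -0.13, 0.09, -0.17, 0.09 and -0.61, with a fitted mean of -0.15 (95% interval -0.49 to 0.20). That comparison called 0.00% of probe sets by limma, with 122 at an unadjusted p under 0.05. The test of the change itself, the BL response under H2O2 minus that at 0 mM, gave -0.87 (SE 0.25, unadjusted p = 0.0062, limma adjusted p = 0.257), while 0.0609% of probe sets were called. Of the 13140 probe sets, 2131 had an unadjusted p under 0.05 in that test. The change in EXPA4's response was therefore not called over all probe sets.

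The other 3 genes had higher means with BL at 0 mM, but with wide errors. EXPA16 averaged 8.40 ± 0.21 with BL and 7.79 ± 0.91 with solvent (SD, n = 3 each), a difference of 0.62 (95% interval -0.50 to 1.73, limma adjusted p = 0.531). EXPA7 averaged 4.59 ± 0.77 with BL and 3.57 ± 1.12 with solvent, a difference of 1.02 (95% interval -0.98 to 3.02, limma adjusted p = 0.749). EXPA18 averaged 4.50 ± 0.27 with BL and 3.55 ± 1.23 with solvent, a difference of 0.94 (95% interval -0.91 to 2.80, limma adjusted p = 0.749). All 3 differences rested on solvent control 3, and without it they were 0.10, 0.37 and 0.26.

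EXPA16 had no BL response that these arrays could show under H2O2. Its BL minus solvent differences were 0.04, 0.20, 0.36, 0.07 and -0.50 from 1 to 100 mM, with a fitted mean of 0.03 (95% interval -0.59 to 0.66). The BL response under H2O2 minus that at 0 mM was -0.58 (limma adjusted p = 0.462). EXPA7 and EXPA18 were at the floor with and without BL, so no BL response can be read for them there.

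**Figure D3:**
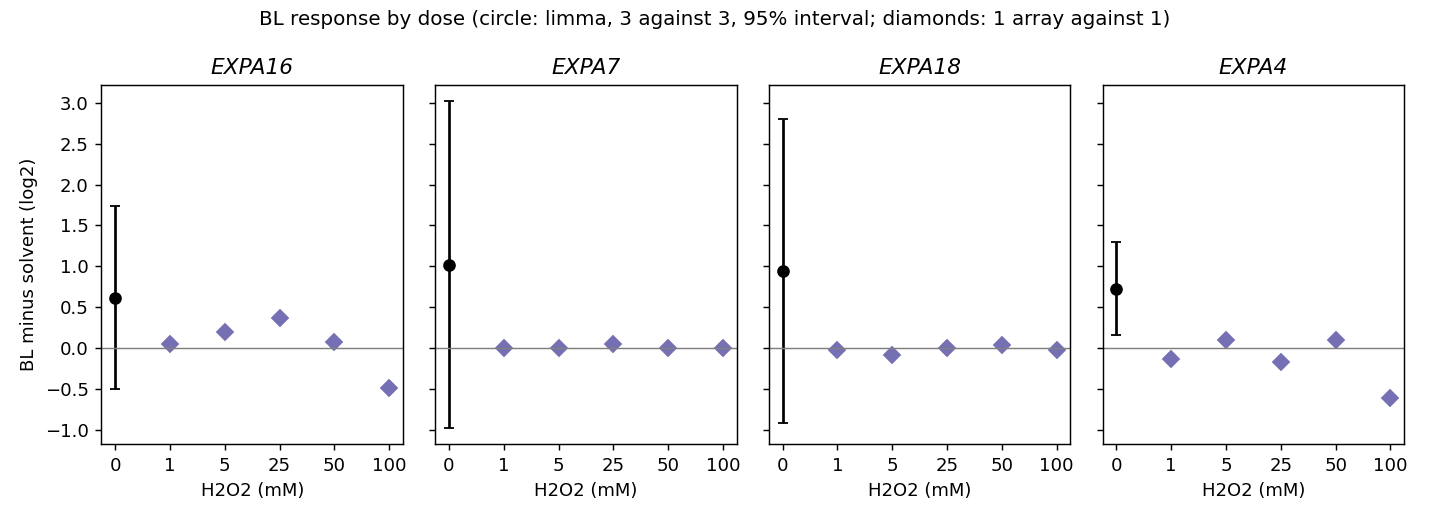
BL minus solvent difference in log2 signal (vertical axes) at each H2O2 dose in mM (horizontal axes), with the limma estimate and 95% interval of 3 arrays against 3 at 0 mM as a circle and single pairs of arrays as diamonds. The interval of EXPA4 at 0 mM lies above 0, at 0.15 to 1.3, and its pairs under H2O2 lie between -0.61 and 0.09.

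Of 31 other expansin and expansin-like symbols, 14 had a probe set of their own and 6 passed the filter. The 2 that rose are expansin-like A genes, a branch of the family for which wall loosening has not been shown. EXLA1 read 11.2, 12.2, 12.3, 12.4 and 11.9 with BL and 11.7, 12.4, 12.5, 12.4 and 12.2 with solvent from 1 to 100 mM. Its range at 0 mM was 10.8 to 11.1 with BL and 10.2 to 10.6 with solvent. Every H2O2 array of EXLA1 was thus above every array at 0 mM, as for 4.21% of the 13140 probe sets. The differences were 0.80 at 1 mM (adjusted p = 0.0290), 1.64, 1.72 and 1.75 at 5, 25 and 50 mM, and 1.43 at 100 mM (limma adjusted p = 0.0021).

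EXLA2 also had every H2O2 array above every 0 mM array (again a property of 4.21% of probe sets), at 4.92 to 6.57 under H2O2 and 3.54 to 4.75 at 0 mM. It rose by 1.3 at 5 mM (limma adjusted p = 0.0292), 1.76 at 25 mM, 1.68 at 50 mM and 1.69 at 100 mM, and along the line from 1 to 100 mM (0.82, adjusted p = 0.0475). At 5 mM EXPA9 fell by 1.44 (limma adjusted p = 0.0477) and EXLB1 fell by 0.78 (adjusted p = 0.0296). The EXPA9 call was lost on leaving out any array but solvent control 3, and the EXLB1 call on leaving out the 5 mM solvent array (-0.40, adjusted p = 0.410) or BL control 1 (adjusted p = 0.0513). The EXLA2 calls from 5 to 50 mM were each lost without either array of that dose (adjusted p = 0.0674 to 0.220), that at 5 mM also without solvent control 1 (0.0516), and that at 100 mM without the solvent array (0.88, 0.261). The EXLA2 call along the dose line was lost in most of the 10 fits without 1 array (0.60 to 1.18, adjusted p up to 0.154). For EXLA1 the call at 100 mM needed the solvent array of that dose (without it 1.25, adjusted p = 0.0610), and the call at 1 mM needed both arrays of that dose (0.48 without the solvent array, adjusted p = 0.372, and 1.12 without the BL array, 0.0513) and solvent control 1 (0.0509).

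The 6 tested relatives had median differences of 0.30, 0.26, 0.49, 0.46 and 0.25 from 1 to 100 mM, against -0.10, -0.10, -0.05, -0.03 and -0.01 over all tested probe sets. Higher calls numbered 1, 2, 2, 2 and 2, and lower calls 0, 2, 0, 0 and 0. Probe sets called higher made up 9.60%, 9.75%, 8.19%, 7.40% and 8.24% of those tested at the same doses. EXPA15 differed by at most 0.18 in size and was not called at any dose, nor was EXLA3 (0.05 to 1.13). None of the 6 was called for BL. The remaining 8, EXPA8, EXPA20, EXPA21, EXPA24, EXPB1, EXPB2, EXPB3 and EXPB5, had too little signal to be tested.

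**Figure D4:**
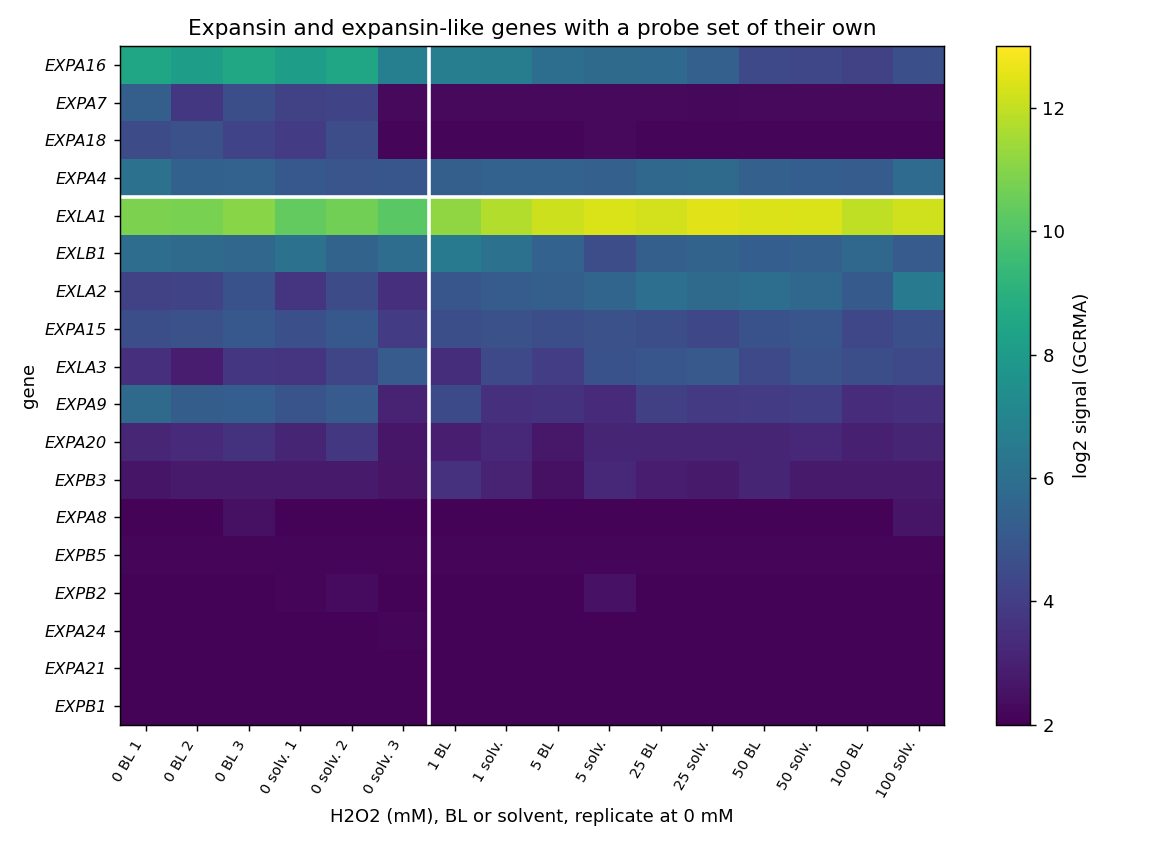
Log2 signal (colour) of the 18 expansin and expansin-like genes with a probe set of their own (vertical axis, the 4 members above the white line) on the 16 arrays (horizontal axis, H2O2 in mM with BL left of solvent at each dose). EXPA16 darkens and EXLA1 brightens under H2O2, and 8 genes near the bottom have little signal on any array.

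Few other root hair genes could be read. Of 50 root hair symbols, 3 had a probe set of their own, and their summed level had a log2 of 10.6 to 10.8 under H2O2 and 10.6 to 10.9 at 0 mM. CSLD2, a cellulose synthase-like gene needed for hair growth, differed from 0 mM by -0.08 to 0.06 over the doses. SCN1, which restricts where hairs start, differed by -0.20 to -0.00, and neither was called in any comparison. XTH26, a xyloglucan-modifying enzyme gene, was at the lowest value of the data on all 10 H2O2 arrays, against 2.48, 2.50 and 3.26 with BL and 2.15, 4.75 and 2.12 with solvent at 0 mM. XTH26 was too low to be tested, and too low to move the summed level, which came almost wholly from CSLD2 and SCN1.

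Markers of other cells were read through few genes. The guard cell list had 3 probe sets, with a summed level of 4.43 to 6.17 (log2) under H2O2 and 6.86 to 7.57 at 0 mM. FMA, a transcription factor gene of stomatal guard cells and the list's tested member, fell at every dose, with differences of -1.43, -1.39, -1.87, -2.24 and -2.85 from 1 to 100 mM (limma adjusted p = 0.0101 at most) and a change of -1.38 along the dose line (adjusted p = 0.0124). The FMA call was lost at 1 mM without either array of that dose (adjusted p = 0.0982 without BL and 0.109 without solvent), and at 5 and 25 mM without the BL array (0.160 and 0.0972). PYK10, a root beta-glucosidase gene and the measured member of the inner root and root cap list, was at 13 to 14.1 under H2O2 and 12.0 to 13.7 at 0 mM, and rose by 0.94 along that line (SE 0.09, adjusted p = 4.64e-05), but it was not called at any dose against 0 mM (limma adjusted p = 0.174 to 0.863). RCA, the measured leaf gene, was at 14.4 to 14.8 under H2O2 and 13.7 to 14.7 at 0 mM, and was not called. The lowest PYK10 and RCA levels at 0 mM were those of solvent control 3, and the other 5 arrays read 13.4 to 13.7 and 14.5 to 14.7. TRY, the measured gene of the list for hairless root cells, was too low to be tested, at 2.30 to 2.57 on all arrays. The part of changes in cell make-up in the expansin results was not tested.

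Of 33 symbols for xyloglucan endotransglucosylases, enzymes that cut and rejoin wall polymers, 10 had a probe set and 6 were tested. None was called at any dose against 0 mM. Along the line from 1 to 100 mM, where 22.2% of the 13140 probe sets were called higher, EXGT-A3 rose by 0.47 (limma adjusted p = 0.0366). That call was lost in 6 of the 10 fits that left out 1 array. The reference genes GAPC2 and PEX4 were not called in any comparison.

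The genes most like each expansin were sought among 7038 other probe sets with 1 gene, by Pearson correlation over the 16 arrays. For EXPA16 they were AT5G25840 (r = 0.98), AT3G62820 (0.97), AT1G21540 (0.96), AT1G64700 (0.96) and AT2G38640 (0.96). Within the 10 H2O2 arrays, which are among the 16 that chose them, these 5 had r of 0.94 for AT5G25840 and 0.87 for each of the others. AT5G25840 was at 5.16 to 7.95 under H2O2 and 7.96 to 9.57 at 0 mM.

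For the root hair markers, which lie at the floor under H2O2, the likeness rested on how far the arrays at 0 mM stood above that floor. EXPA7 was most like AT2G20450, AT4G18280, AT3G22550, AT3G61820 and AT4G25870 (r = 0.96 to 0.97), with r of -0.39 to 0.35 within the H2O2 arrays. EXPA18 was most like AT4G25870, AT5G23250, AT1G30870, AT3G57220 and CIL (r = 0.97 to 0.98), with r of -0.61 to 0.61 there. Solvent control 3 was the lowest of the 0 mM arrays for each of these genes. The same held for the 5 genes most like EXPA16 and the 5 most like EXPA4. For EXPA4 the highest correlations were lower, at 0.73 to 0.76 for AT1G67340, AT5G57100, AT3G10840, AT3G07540 and AT4G23740. EXPA4 itself correlated with the other members at -0.08 to 0.11, and EXPA16 at 0.84 with EXPA7 and 0.86 with EXPA18. Within the 10 H2O2 arrays, EXPA16 correlated at 0.003 with EXPA7 and at 0.47 with EXPA18, both of which lie at the floor there.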

How the data were processed

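RNA of whole seedlings was hybridised to 16 Affymetrix arrays of 22810 entries, 64 of them controls. The deposited values are log2 signals per probe set from GCRMA according to the submitters' notes on processing, which give no version. The log2 scale was read from the deposited values, whose array medians ran from 5.50 to 5.71. Gene names came from the platform annotation, updated through RefSeq: 13513 probe sets had 1 gene, 503 several and 8730 none, and 13436 of the 13513 matched by locus. Probe sets of at least 5 on at least 2 arrays were kept (13140). The members and lists were chosen with earlier results of these data known.

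limma 3.58.1 (R 4.3.3) was fitted across all kept probe sets, with additive terms for dose level and BL over 16 arrays. The BL response at 0 mM used 6 arrays, that under H2O2 the 5 pairs in a fit of all 16, and the dose line 10 arrays over log2(1 + dose). EXPA7 and EXPA18 were read from the fit of all 22746 probe sets. Neighbouring doses and counts of groups that do not overlap were added after seeing the data. Named genes are the members, every other expansin with a probe set, the 2 largest called rises and falls per list, and the 5 genes most correlated with each member. Lists of brassinosteroid genes and other wall enzymes matched no probe set with 1 gene in this annotation, which leaves many unnamed. The scripts were tested on simulated data. The number of arrays limits the precision. Alternatives were quantile normalization, median centring, limma-trend, other filters, arrays of one hormone state, a replicate block, dose ranks and leaving out each array. The tests within one hormone state took their spread from the 0 mM arrays of both states.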

Additional observations from a re-analysis of the deposited data

Results flagged for a closer look

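Solvent control 3 was the lowest of the 6 arrays at 0 mM, and apart from the other 5 by Dixon's criterion, for 4 of the 10 expansin genes examined. Chance marks about 1 in 20 groups, but these genes share the same 6 arrays, so the marks are not independent of each other. It read 6.75 for EXPA16 and 2.18 for EXPA18, and 3.10 for EXPA9 and 3.93 for EXPA15. For EXPA7 it was the lowest too, at 2.28, without passing that criterion, and for EXLA3 it was the highest, at 5.18. EXPA4 read 4.95 there, between the other solvent arrays.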

How the results depend on the processing

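The fall of EXPA16 at 5 to 100 mM and along the dose line was called in every fit that left out 1 array, and under both scalings, limma-trend and both other filters. It was not called within the arrays of one hormone state. Those arrays alone called few probe sets of any kind: 76, 54, 41, 25 and 42 with BL and 113, 36, 12, 10 and 23 with solvent from 1 to 100 mM, against 2639, 3050, 2083, 1903 and 2037 in all arrays. Leaving out 1 array moved these counts to between 676 and 5981, 879 and 5984, 300 and 4928, 314 and 4584, and 435 and 5034. Each highest count came without solvent control 3 and the lowest without an array of that dose. The dose line ranged from 3865 to 4916 calls. Median centring lowered the share of calls that were higher to 39.7% (against 51.7%) at 25 mM, 37.3% (53.2%) at 100 mM and 43.2% (57.8%) on the dose line.

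The 3 BL calls at 0 mM became 0 with limma-trend, 0 with the replicate number as a block, and 0 to 93 without 1 array. Deviations of same-numbered arrays correlated at 0.18, 0.11 and -0.07, not all above 0.1, so the numbers were not taken as pairs. Whether these arrays share a batch is not known. The BL response under H2O2 had 0 calls in every fit run (122 at an unadjusted p under 0.05 with all arrays). The 8 calls for the change in BL response became 15 with quantile normalization, 13 with median centring, 4 with limma-trend, 4 with a stricter filter, 13 with none and 3 to 1786 without 1 array. The count of 1786 came without solvent control 2.

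The sign of EXPA4 against 0 mM depended on the hormone state: -0.35, -0.23, -0.027, -0.32 and -0.47 from 1 to 100 mM within BL arrays, and 0.51, 0.40, 0.87, 0.31 and 0.87 within solvent arrays. Its dose line was -0.0014 with median centring. Without 1 array EXPA4 ranged from -0.10 to 0.26 at 1 mM, -0.076 to 0.16 at 50 mM, -0.25 to 0.65 at 100 mM and -0.023 to 0.22 on the dose line. EXPA16 then ranged from -0.047 to 0.17 for BL under H2O2 and from -0.38 to 0.48 between 50 and 100 mM. The cause was not tested. The stricter filter dropped EXPA4, so it has no value there.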
